A study of Mus musculus with 2 samples.

Results

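Suprabasal-scored cells are the epidermal cells whose open chromatin leaned towards the genes of differentiating keratinocytes in 2 single-cell ATAC-seq libraries of mouse back skin at E16.5 (an embryonic day). They were selected on their own accessibility at Krt1, Krt10, Krtdap and Sbsn, set against Itga6, Itgb4, Col17a1 and Krt15. The rule found 1109 of 6889 deposited cells, 391 of 2541 in the Control library and 718 of 4348 in the MOF cKO library. MOF (gene Kat8) is the acetyltransferase of lysine 16 on histone H4, and MOF cKO skin carried MOFfl/fl with K14Cre, a Cre recombinase driven by the Krt14 promoter. That promoter is active in basal keratinocytes, so suprabasal cells inherit the deletion from the cells they arise from, and dermal cells keep MOF. The Control library is labelled only as control; the study describes its controls as littermates without the homozygous deletion. Both libraries also carried the K14-H2BGFP reporter. GFP-positive and GFP-negative cells were sorted and put back together at 5 to 1 by the labels, while the text of the study gives other ratios, so shares of cell types were set by the sort.

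Each genotype was 1 library. No test, p-value or standard error could therefore be given, every interval below is a 95% exact interval of counting error alone, and genotype cannot be told apart from differences between those 2 skins or those 2 preparations. The unit counted is a Tn5 cut site, of which each sequenced fragment gives 2, and intervals of counted sites were computed on fragments. Intervals of motif shares were computed on regions, and those of shares of cells on cells, which are not replicates of a genotype. A level in CPM is the number of sites per 1000000 sites that a group of cells had in the regions called as peaks in both libraries. ATAC-seq measures open chromatin, not RNA, so a high level at a gene is not expression of it.

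The epidermis renews itself from a basal layer fixed to the basement membrane by integrins and collagen XVII. A cell that leaves this layer becomes a spinous cell, turns on the keratin pair Krt1 and Krt10 and strengthens its desmosomes. It then becomes a granular cell, which stores filaggrin and loricrin and secretes lipids, and ends as a cornified cell of the barrier. Many genes of the last steps (loricrin, involucrin, filaggrin, the late cornified envelope and the small proline-rich proteins) lie side by side in the epidermal differentiation complex on chromosome 3, and the barrier is being laid down at this age of the embryo.

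The choice of members used 4 gene sets, each scored as a cell's share of sites in peaks within 2000 bp of the gene bodies, divided by the mean share of its library. Of the cells with at least 5000 sites (2182 Control, 4280 MOF cKO), those whose epithelial score exceeded their fibroblast score by more than 1 on the log2 scale numbered 1190 and 2169. Members were the lowest tercile of these in the ratio of basal-set to suprabasal-set score, cut within each library. The ratio had no value in 15 Control and 28 MOF cKO cells without sites in either set. It was 0 in 8 Control and 15 MOF cKO members, which had no sites in the basal set. The last member inside and the first cell outside had the same ratio to 3 digits, 0.803 in Control and 0.771 in MOF cKO. Within 10% of the cut lay 69 Control cells inside and 63 outside, and 118 and 112 MOF cKO cells. Among cells with sites in both sets, the ratio formed 1 continuous hump in each library with no gap at the cut. The members are therefore a range of a score and not a separate cluster. The highest tercile, 395 Control and 724 MOF cKO cells, is called basal-scored below and was chosen by the same ratio. It took in 84 Control and 202 MOF cKO cells with no sites in the suprabasal set.

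**Figure D1:**
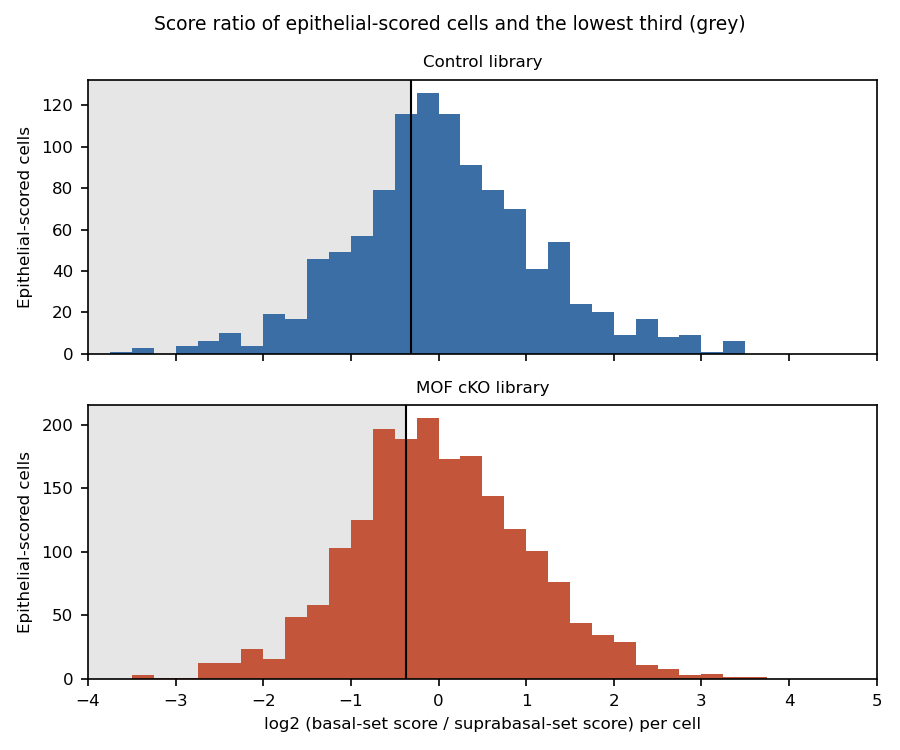
Number of epithelial-scored cells (vertical axis) by log2 ratio of basal-set to suprabasal-set score (horizontal axis, bins of 0.25) in the Control and MOF cKO libraries, with the selected tercile shaded and the cut as a line. The cut, at a ratio of 0.803 in Control and 0.771 in MOF cKO, falls near the peak of a single continuous distribution. Cells with no sites in one of the 2 sets are not drawn.

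The score rested on few sites. A member had a median of 13 sites (quartiles 8 and 20) at the 4 suprabasal genes in Control and 11 (7 and 15.8) in MOF cKO, with 2 to 49 and 1 to 37 as the extremes. At the 4 basal genes, members held a median of 19 and 18 sites. Depth was alike in the outer terciles. The median cell had 70717 sites in peaks of its library among Control members and 78953 among MOF cKO members, against 69537 and 76590 among basal-scored cells, and cells of the middle tercile were deeper, with 83835 and 95858. The 2 libraries had 21 cell barcodes in common, of which 4 belonged to Control members, none to MOF cKO members, and 0 to members of both.

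The member levels of the 4 genes that chose the cells were set by the rule, and they are given beside those of other cells as a description. Krtdap (chr7:30787896-30791097), a secreted keratinocyte protein, had 92.1 CPM in Control members against 7.15 CPM in fibroblast-scored Control cells. At Sbsn (chr7:30751471-30756134), which encodes suprabasin, these levels were 34.4 and 1.88 CPM. Krt1 (chr15:101845426-101850794) had 31.8 CPM in Control members and still 12.4 CPM in fibroblast-scored cells, and Krt10 (chr11:99385254-99389364) 47.2 and 34.1 CPM. In basal-scored Control cells Krtdap had 24.6 CPM and Sbsn 8.39 CPM, above fibroblast-scored cells, while Krt1 had 10.00 CPM and Krt10 16.8 CPM, below them. Fibroblast-scored cells were thus low at Krtdap and Sbsn and not at Krt10.

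The shares of cells with a site were read in the same way. At least 1 site was found at Krtdap in 87.2% of Control members (exact binomial interval 83.5 to 90.4) and in 14.6% of fibroblast-scored Control cells (12.01 to 17.4), at a median of 70717 and 67717 sites per cell. For Krt10 these shares were 73.1% (68.5 to 77.5) and 61.4% (57.6 to 65.02), and 39.7% (34.9 to 44.8) of basal-scored Control cells had one. Krt1 had a site in 59.1% of Control and 51.9% of MOF cKO members, and Sbsn in 60.6% and 75.2%.

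The promoters of 3 of the 4 genes are printed because the score turned on these loci, from the RefSeq table for GRCm38.p6, which had Krt10, Krtdap and Sbsn of the 4. Each runs from 250 bases before to 50 bases after the start site, 5′ to 3′ on the gene's strand, with matches to the motifs searched below in capitals. The stretches are chr11:99389315-99389614 (minus strand), chr7:30787655-30787954 and chr7:30751221-30751520 (plus strand).
Krt10: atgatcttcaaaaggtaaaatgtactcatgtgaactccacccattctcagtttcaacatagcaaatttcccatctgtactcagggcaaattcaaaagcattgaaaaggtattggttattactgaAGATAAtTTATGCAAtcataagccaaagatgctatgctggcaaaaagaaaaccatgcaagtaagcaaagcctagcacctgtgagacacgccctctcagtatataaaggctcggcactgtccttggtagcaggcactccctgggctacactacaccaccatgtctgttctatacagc
Krtdap: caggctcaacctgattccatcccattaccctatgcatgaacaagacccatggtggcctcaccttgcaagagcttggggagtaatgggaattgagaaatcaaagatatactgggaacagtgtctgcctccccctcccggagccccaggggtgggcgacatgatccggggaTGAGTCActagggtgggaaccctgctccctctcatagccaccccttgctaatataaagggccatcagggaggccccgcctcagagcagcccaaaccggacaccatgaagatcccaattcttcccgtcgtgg
Sbsn: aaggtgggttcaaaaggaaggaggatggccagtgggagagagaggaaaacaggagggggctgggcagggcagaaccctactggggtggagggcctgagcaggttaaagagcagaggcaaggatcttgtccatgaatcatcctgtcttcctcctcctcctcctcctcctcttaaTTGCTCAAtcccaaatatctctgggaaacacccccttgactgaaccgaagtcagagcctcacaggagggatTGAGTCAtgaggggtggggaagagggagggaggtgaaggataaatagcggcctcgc
Krtdap and Sbsn each held 1 AP-1 word (TGAGTCA), which 5.20% of 32851 promoters of this length hold as TGACTCA or TGAGTCA. Krt10 and Sbsn held the CEBP word TTGCNNAA or its reverse complement, found in 10.8% of promoters, and Krt10 a GATA word (AGATAA), found in 11.2%. A match is a stretch of letters, not a bound site.

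Outside the genes that chose them, members differed little from basal-scored cells. All regions within 2000 bp of any scored gene were left out for this comparison. Because the rule ranked the cells on the same axis, the values that follow are a description. At the 4 scored genes the log2 ratio of member to basal-scored CPM was 1.49 to 2.04 in Control and 1.76 to 1.90 in MOF cKO. Over the 13 spinous genes the median was 0.06 in Control and 0.12 in MOF cKO, over the 18 granular and cornified genes with a counted region 0.16 and 0.09, over the 21 lipid barrier genes 0.12 and 0.14, and over the 10 desmosome genes 0.14 and 0.09. The medians of all genes were −0.01 in both libraries, and under other ways of choosing the cells the spinous median in Control ran from −0.00062, with 1 site added to each set before the ratio, to 0.19, with every cell thinned to 5000 sites, where that in MOF cKO was 0.068. At promoters alone the medians were 0.24 and 0.18 for spinous and 0.19 and 0.39 for granular genes. Over whole loci no spinous, granular or lipid gene was 2-fold higher in members of either library, and over all genes 68 of 17971 (0.378%) and 28 of 18026 (0.155%) were 2-fold higher in members.

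Granular and lipid barrier genes were more often higher in members than genes at large. In Control, 16 of 18 granular, 17 of 21 lipid barrier and 8 of 13 spinous genes were higher in members, against 8 of 16 basal layer genes, which had a median of −0.00, and against 46.3% of all genes. In MOF cKO these counts were 13, 17, 9 and 5, against 44.7% of all genes. Some lists that are not of differentiation leaned the same way in Control, with 14 of 18 stress and wound and 5 of 7 melanocyte genes higher. The counts in MOF cKO were 12 and 0. Other such lists did not, with 1 of 7 immune, 3 of 8 endothelial, 2 of 6 Schwann and 5 of 13 hair follicle genes higher in Control. Most differences in the differentiation lists were small beside counting error. In Control 2 of 18 granular, 9 of 21 lipid barrier and 5 of 13 spinous genes had an interval above 0. The same counts in MOF cKO were 5, 10 and 6. No such share was computed over all genes, so these counts cannot be set against genes at large. Dsc1, a desmosomal cadherin of upper layers, had a log2 ratio of 0.56 (interval 0.33 to 0.79) in Control and 0.55 (0.36 to 0.74) in MOF cKO. Dsg1a, its desmoglein partner, had 0.33 (0.14 to 0.52) and 0.43 (0.25 to 0.61), and Abca12, the lipid transporter of lamellar granules, 0.44 (0.31 to 0.58) and 0.27 (0.18 to 0.36). Dmkn, which encodes dermokine and lies next to Krtdap and Sbsn, had 0.27 (0.14 to 0.40) and 0.25 (0.14 to 0.36). Lor (loricrin) had 0.11 (−0.11 to 0.33) and −0.00 (−0.18 to 0.17), and Ivl (involucrin) 0.21 (−0.25 to 0.67) and 0.35 (0.07 to 0.62). Apart from Dmkn, the genes named here were chosen after their values were seen.

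The leading genes outside the scored loci were named after their values were seen. Ranked by the smaller of the 2 libraries' ratios among genes with at least 200 sites over both terciles in each library, the 12 highest included Sdr16c6 (0.91 in Control, 1.12 in MOF cKO) and Sdr16c5 (1.02 and 0.78), neighbouring genes of short-chain dehydrogenases on chromosome 4. They also included Elovl4 (0.60 and 0.53), which makes the very long fatty acids of barrier ceramides, and S100a9 (0.87 and 0.51), the last in rank. The others of the 12 highest were Krtap28-10, Fam25c, the olfactory receptor gene Olfr70, Tmprss4, Aldh1a7, Aadacl2, Dsc1 and Kcnk7. Lowest, ranked by the larger of the 2 ratios, were Tlr6 (−0.80 in Control, −0.82 in MOF cKO), H2-M2, Tmigd3, Foxs1, Neurl3 and Defb47. The rest of the 12 lowest were Fam187a, Cxcl2, Adora3, 4933408B17Rik, Lrrc55 and Cpa3. The share of all counted sites that fell in the epidermal differentiation complex, between S100a1 and S100a10 (chr3:90511034-93564643, 241 regions), was 0.132% (0.130 to 0.134) in Control members and 0.119% (0.117 to 0.121) in Control basal-scored cells. By these markers the label describes a small shift in the mean of the group rather than a distinct cell type, and the name suprabasal-scored is used for that reason.

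**Figure D2:**
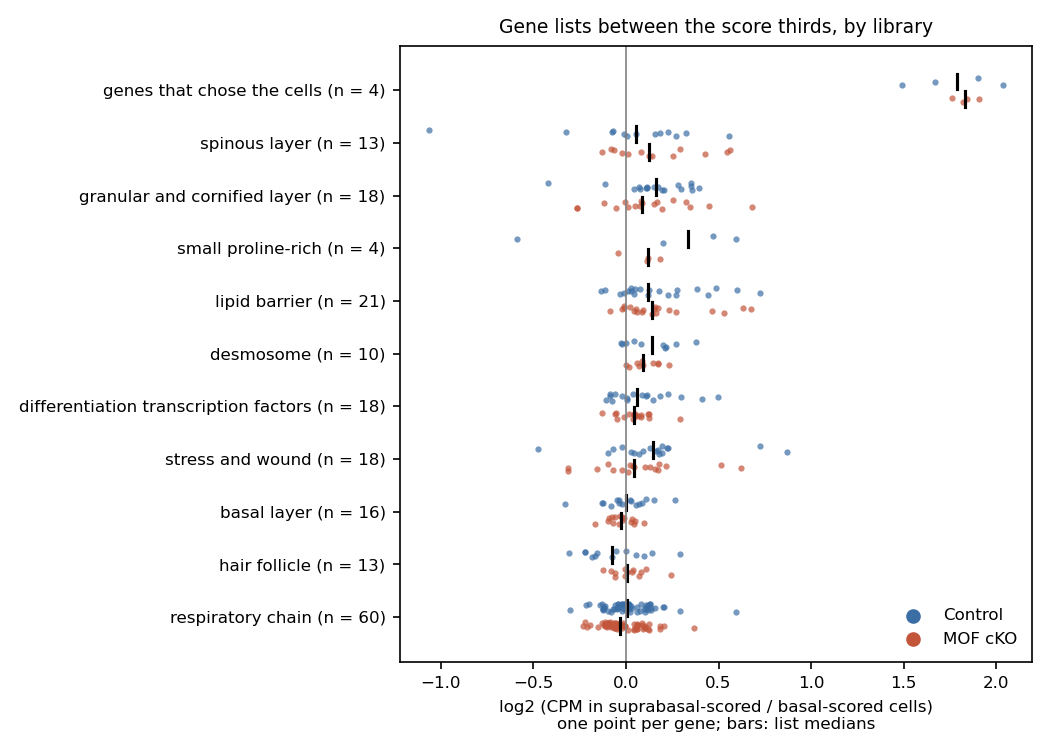
Log2 ratio of CPM in suprabasal-scored to basal-scored cells (horizontal axis) for each gene of 11 lists (vertical axis), in Control and MOF cKO, with list medians as bars. The 4 genes that chose the cells lie at 1.49 to 2.04, while the medians of the lists of differentiation genes lie between 0.05 and 0.33.

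Markers of other cell types were present in members. Of those compared here, only the fibroblast and immune genes were lower in members of both libraries than in fibroblast-scored Control cells. The summed level of the 8 fibroblast genes, which were part of the rule, was 119 CPM in Control and 120 CPM in MOF cKO members, against 702 CPM in fibroblast-scored Control cells. Its genes moved in both directions in members, with the interval of the change above 0 for Col3a1 (6.13 to 12.3 CPM), Dpt (2.50 to 5.93 CPM) and Twist2 (7.36 to 11.2 CPM), below 0 for Lum (8.35 to 3.84 CPM) and Pdgfra (38.2 to 33.6 CPM), and spanning 0 for the other 3. Of the 8 immune genes 7 had a counted region, and the level summed over the list was 82.6 CPM in Control and 101 CPM in MOF cKO members, with medians per cell of 69.0 and 89.7 CPM, and it was 106 CPM in fibroblast-scored Control cells. The 8 endothelial genes summed to 240 and 247 CPM, above the 194 CPM of fibroblast-scored Control cells, the 13 hair follicle genes to 824 and 685 CPM, against 733 CPM there, and the 7 genes of periderm and simple keratins to 134 and 126 CPM. Fibroblast-scored MOF cKO cells had 611 CPM at the fibroblast, 124 CPM at the immune, 190 CPM at the endothelial and 690 CPM at the hair follicle genes. No doublet was removed, and the part of other cells in the results below was not tested.

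The targeted gene was read first in the comparison of MOF cKO with Control members. The Kat8 promoter (chr7:127912148-127913084) had 46.5 CPM (43.0 to 50.1) in Control and 36.4 CPM (34.1 to 38.8) in MOF cKO members, a log2 ratio of −0.35 (−0.50 to −0.21), close to the median of all promoters given next. Accessibility of a promoter does not show whether the gene body was deleted.

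Promoters as a class lost share in MOF cKO members. Regions within 500 bp of a start site of a protein-coding gene took 37.6% of the counted sites of Control members and 28.5% of those of MOF cKO members, a difference of −9.04 percentage points (−9.07 to −9.01). The shift ran through the cells, since the promoter share of the median member was 37.2% (quartiles 34.5 and 40.2) in Control and 28.0% (25.8 and 30.6) in MOF cKO, so the middle ranges did not overlap. The difference was −8.69 points in basal-scored and −0.57 points in fibroblast-scored cells. The median log2 change over 15790 promoters was −0.40 in members, −0.39 in basal-scored and −0.02 in fibroblast-scored cells, and 83.6% of promoters were lower in MOF cKO members. Past 2-fold were 420 promoters (2.66%) downwards and 462 (2.93%) upwards. Because levels are shares of a fixed total, a fall at promoters and a rise elsewhere cannot be told apart on this scale.

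The promoters at the ends of that range differed several-fold between the libraries. Of the 5 that fell most among autosomal promoters with at least 200 sites, Kiss1, which encodes kisspeptin, went from 7.40 CPM (6.05 to 8.95) to 1.06 CPM (0.70 to 1.54), a log2 change of −2.80. Ccdc8 went from 29.9 to 7.84 CPM and Rab44 from 22.3 to 5.27 CPM. Minar2 fell by 2.70 on the log2 scale, and Cib4 fell by 2.42. Every one of these 5 fell in basal-scored cells too, by 1.85 to 2.93 on that scale. In fibroblast-scored cells Cib4 changed by −1.81 (−3.56 to −0.27), Rab44 by −0.58 (−0.88 to −0.29) and Ccdc8 by −0.48 (−0.69 to −0.28). The intervals of Minar2 (−0.63) and Kiss1 (0.39) spanned 0 there.

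The 5 promoters that rose most had almost no Control sites. Each met the minimum of sites for naming through its MOF cKO count, so low Control counts came with the choice. Il1a, the gene of the epidermal alarm cytokine interleukin-1 alpha, went from 0.42 CPM (12 sites) to 9.96 CPM (516 sites), a log2 change of 4.56 (3.42 to 6.02). Klra2 went from 10 to 552 sites, Col6a4 from 8 to 383, Cdh5, the cadherin of endothelial cells, from 7 to 226, and Arl14 from 14 to 449. Il1a and Cdh5 are genes of unlike cell types, and all 5 promoters rose in basal-scored cells as well, by 2.71 to 4.32 on the log2 scale. In fibroblast-scored cells Col6a4 rose too, by 2.85 (2.25 to 3.51), Klra2 by 1.22 (0.22 to 2.34) and Cdh5 by 0.74 (0.22 to 1.29), while the intervals of Il1a (0.70) and Arl14 (0.60) spanned 0.

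Genes of the spinous step lay near or slightly below the median of all gene loci. For gene lists, the level of a gene was summed over its body and 2000 bp on each side, leaving out regions of the genes that chose the cells, and over all 18004 genes its median log2 change in members was −0.24, with 4.28% of genes past 2-fold upwards and 1.24% downwards. The 13 spinous genes had a median of −0.36, their summed level went from 547 to 447 CPM, and 1 rose and 1 fell past 2-fold. Of the 13, 2 had an interval above the all-gene median and 5 below it, and over all genes these shares were 33% and 29.2%. The median less that of all genes was −0.12, and −0.25 with every cell thinned to 5000 sites. The one that fell was Calml3, a calmodulin-like protein of keratinocytes, from 5.53 to 2.49 CPM, or −1.15 (−1.65 to −0.66). The one that rose was Krt2, with only 7 and 53 sites. Dmkn went from 79.7 to 58.7 CPM. The genes that chose the members fell as well: by 0.49 at Krt1, 0.51 at Krt10 and 0.63 at Krtdap, while Sbsn had a log2 change of 0.38, all as a description, since the score was scaled within each library.

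Genes of the granular and cornified step split. Of the 25 listed genes 18 had a counted region and 7 did not, and the 18 had a median change of 0.01, from −0.74 to 2.35, with 9 whose interval lay above the all-gene median and 2 below it, against 33% and 29.2% of all genes. Past 2-fold upwards were 3, against 4.28% of all genes. Lce1b, a late cornified envelope protein, went from 9.58 to 29.5 CPM, a log2 change of 1.62 (1.36 to 1.89). Trex2, a nuclease of the cornifying cell, went from 0.77 to 3.94 CPM (2.35, interval 1.45 to 3.39), and Flg, which encodes profilaggrin, from 0.88 to 2.10 CPM on 25 and 109 sites (1.26, interval 0.35 to 2.27). Asprv1, the protease that processes profilaggrin, went the other way, from 43.1 to 32.7 CPM. Tgm1, which cross-links the cornified envelope, had 38.4 and 41.6 CPM, a change of 0.12 (−0.03 to 0.27). The median lay 0.25 above that of all genes, 1.32 above it at promoters alone and 0.87 above it with every cell thinned to 5000 sites. Summed over the list, the level was 248 CPM in Control and 302 CPM in MOF cKO members. At promoters, where 11 of the 25 genes were measured, the sums were 87.3 and 89.3 CPM, a log2 change of 0.03 (−0.07 to 0.13).

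Of the small proline-rich genes, cross-linked into the envelope in stressed and barrier epithelia, only 4 of 14 had a counted region, and 3 of these 4 were past 2-fold higher, against 4.28% of all genes, with a median of 1.83 and a lowest value of 0.31. Summed over the 4 genes, the level went from 30.1 to 55.0 CPM, a log2 change of 0.87 (0.71 to 1.03), which is smaller than the median. Sprr1b, named after its values were seen, went from 4.61 to 18.2 CPM. The whole epidermal differentiation complex took 0.132% of sites in Control and 0.159% in MOF cKO members, a difference of 0.026 points (0.024 to 0.029). That difference was 0.031 points (0.029 to 0.034) in basal-scored and −0.001 points (−0.002 to 0.000) in fibroblast-scored cells.

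Among lipid barrier genes and transcription factors of differentiation, 1 gene of each list was past 2-fold, a share near the 4.28% of all genes past 2-fold upwards. Of the 21 lipid genes 12 had an interval above the all-gene median and 3 below it, against 33% and 29.2% of all genes, with a median of 0.06, which is 0.30 above that of all genes and 0.14 above it in regions called at like width. Past 2-fold was 1, Lipn, an acid lipase of the granular layer, from 4.54 to 12.2 CPM (1.43, interval 1.04 to 1.84). Cers3, the ceramide synthase of the barrier, had 134 and 145 CPM, and Aloxe3, a lipoxygenase of the same pathway, 99.8 and 104 CPM. Among 18 transcription factors the median was −0.12 and Ehf alone was past 2-fold, an Ets factor of epithelia, from 17.6 to 35.7 CPM (1.02, interval 0.82 to 1.23). Grhl3 went from 164 to 138 CPM (−0.26, interval −0.33 to −0.18) and Rora from 377 to 405 CPM.

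Over whole loci, genes of stress and wounding stood highest above the median of all genes among the 5 lists to which the naming rule was applied, while the 4 small proline-rich genes lay further above it, by 2.06. Granular genes stood higher at promoters alone, at 1.32 against 0.78, and in thinned cells, at 0.87 against 0.75. Of the 20 stress and wound genes, all 18 that were measured lay above it, 15 of them with their whole interval against 33% of all genes, the median was 0.53, or 0.76 above that of all genes, and 5 of 18 were past 2-fold upwards against 4.28% of all genes. Il24, a cytokine of the interleukin-10 family, went from 8.24 to 43.3 CPM (2.39, interval 2.12 to 2.68). The wound keratins Krt16 and Krt6a went from 16.48 to 47.7 CPM (1.53, interval 1.33 to 1.74) and from 8.45 to 20.02 CPM (1.24, interval 0.96 to 1.54). Ereg, which encodes a ligand of the epidermal growth factor receptor, went from 14.9 to 36.4 CPM, and Il1b from 3.56 to 8.03 CPM. Tgfa, another such ligand, had 82.4 and 87.0 CPM, a change of 0.08 (−0.03 to 0.18), and Krt17 65.8 and 80.2 CPM. Some marker lists of other cell types lay above the all-gene median too. The median less that of all genes was 0.51 for 7 immune genes (6 intervals above, none below, 3 past 2-fold) and 0.50 for 8 endothelial genes (5 above, none below). It was 0.44 for 7 melanocyte genes (3 above, 2 below), 0.31 for 6 mural cell genes (2 above, 2 below) and 0.16 for 7 periderm and simple keratin genes (3 above, 1 below). It was −0.15 for muscle, −0.10 for hair follicle, −0.08 for Schwann and 0.07 for Merkel cell genes. Their part in the result was not tested.

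The rise at these loci was spread over many members. At least 1 site at Il24 was found in 21.99% of Control members (17.99 to 26.4) and 70.5% of MOF cKO members (67.0 to 73.8), against 5.48% and 6.15% of fibroblast-scored cells. For Krt16 the shares were 35.3% (30.6 to 40.3) and 68.7% (65.1 to 72.0), against 3.03% and 2.32% of fibroblast-scored cells. For Krt6a they were 21.0% and 45.4%. The median depth of MOF cKO members was 1.12 times that of Control members, and that of fibroblast-scored MOF cKO cells lay below their Control.

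**Figure D3:**
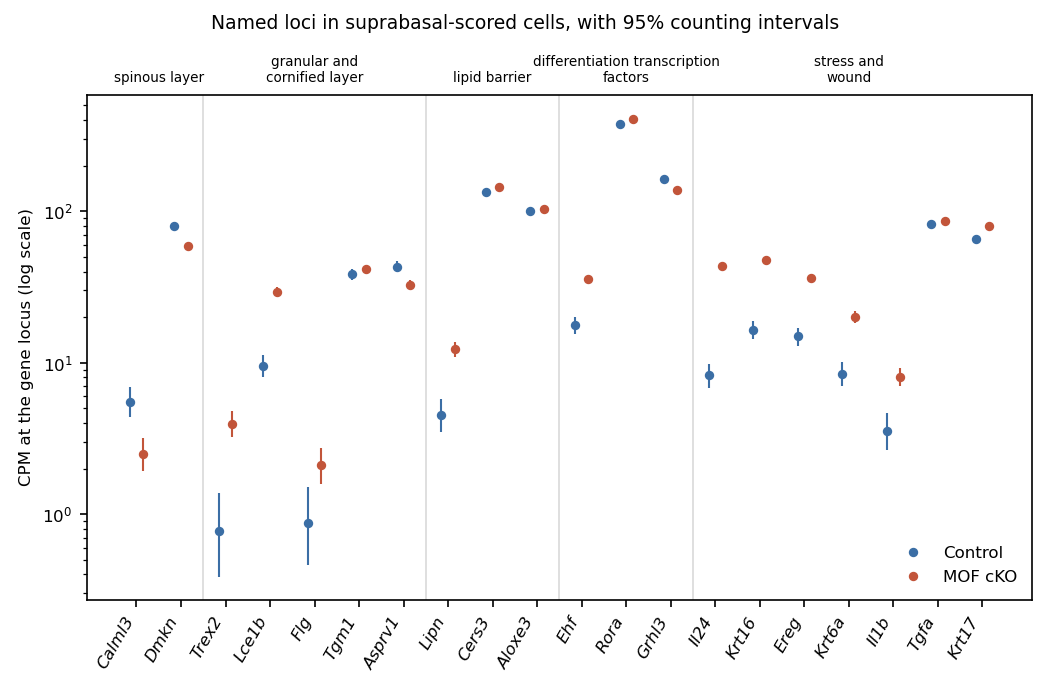
Level in CPM (log axis) of the gene loci named here in suprabasal-scored Control and MOF cKO cells, grouped by list, with 95% exact Poisson intervals of counting error. Il24 goes from 8.24 to 43.3 CPM and Krt16 from 16.48 to 47.7 CPM, while Calml3 goes from 5.53 to 2.49 CPM.

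Basal-scored cells showed changes of like size, and the difference between the terciles was not tested. The list medians in basal-scored cells were −0.36 for spinous, 0.13 for granular and cornified, 0.00 for lipid barrier, −0.05 for transcription factor and 0.57 for stress and wound genes, each within 0.12 of the member value. Il24 changed by 2.60 and Krt16 by 1.58 in basal-scored cells. In fibroblast-scored cells the stress list had a median of 0.10 and the spinous list −0.16, with Il24 at 0.60 and Krt16 at −0.28 (−0.996 to 0.449). At promoters alone the stress medians were close, at 0.37 in members, 0.41 in basal-scored and 0.36 in fibroblast-scored cells. The medians of all promoters in these groups were −0.40, −0.39 and −0.02.

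**Figure D4:**
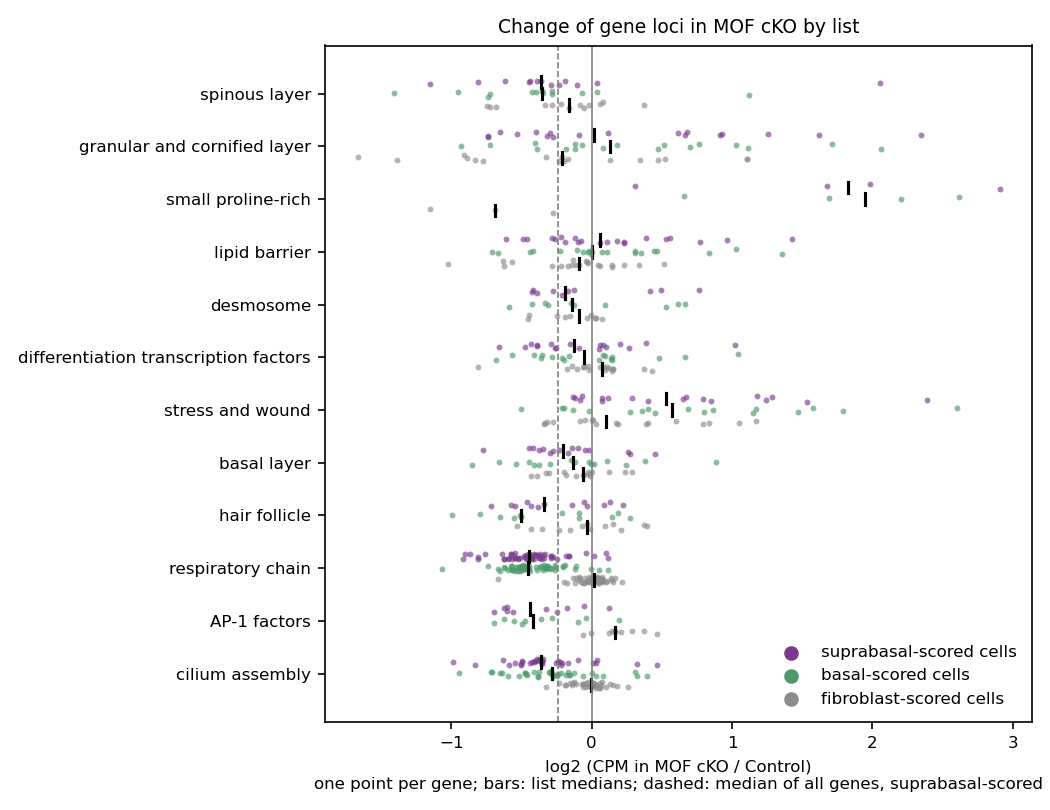
Log2 ratio of CPM in MOF cKO to Control (horizontal axis) for each gene of 12 lists (vertical axis) in suprabasal-scored, basal-scored and fibroblast-scored cells, with list medians as bars and the all-gene median of the suprabasal-scored cells, −0.24, as a dashed line. The stress and wound medians of both epidermal groups, 0.53 and 0.57, stand beside 0.10 in fibroblast-scored cells over whole loci.

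Genes of the respiratory chain and of the cilium lay below the median of all genes in members. Of 60 nuclear genes of the respiratory chain, 34 had an interval below it and 2 above it, against 29.2% and 33% of all genes, and their summed level went from 2379 to 1728 CPM, with a median of −0.44. The 36 cilium assembly genes had a median of −0.36, 16 of them with an interval below and 5 above. At promoters alone, where the median of all genes was −0.40, these medians were −0.49 and −0.54. Fewer intervals lay apart there, with 16 of 60 respiratory chain genes below and 1 above, and 12 of 36 cilium genes below and 4 above, against 18.4% and 21.6% of all promoters. Over the whole loci basal-scored cells had −0.45 and −0.29, and fibroblast-scored cells 0.02 and −0.01.

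Away from start sites, open regions moved in both directions. Of 153432 regions more than 2000 bp from any start site, 35967 (23.4%) were 2-fold higher and 17719 (11.5%) 2-fold lower in MOF cKO members, and these regions took 48.3% of sites in Control and 57.3% in MOF cKO members. In basal-scored cells 24.2% were higher and 14.9% lower, and in fibroblast-scored cells 9.06% and 10.6%. The 1000 that rose most had a log2 change of at least 4.04, with a median of 8 Control and 343 MOF cKO sites.

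The regions at the extremes are printed because they carry the sharpest gains and losses among distal regions with at least 200 sites. Each met that minimum through the library in which it was high, so a low count in the other came with the choice. The 3 gains were an intergenic region 8302 bp from Slc5a1 with 0 Control and 524 MOF cKO member sites, a region far from any protein-coding gene, nearest to Grik2, with 2 and 802 sites, and an intergenic region nearest to Mbd2, with 1 and 438 sites. Against a floor of 6 sites, which stands for 3 fragments in the library, the first was 47.9-fold higher. The lower end of its two-sided interval, 5.27 on the log2 scale, lies below that ratio. The others, with Control sites below that floor, had ratios of 220 (39.2 to 8705) and 240 (25.4 to 245352) as counted, and of 73.3 and 40.02 against the floor. The 3 losses were a region in an intron of 9430078K24Rik, from 214 to 10 sites, an intergenic region nearest to Foxp1, from 253 to 18 sites, and a region in an intron of Pdzd2, from 261 to 19 sites. The log2 changes of these losses were −5.29, −4.68 and −4.65. All 6 moved the same way in basal-scored cells. In fibroblast-scored cells the gain near Slc5a1 changed by 1.61 (0.52 to 2.88) on the log2 scale. The gain nearest to Mbd2 changed there by 0.44 (0.18 to 0.70), from 8.03 CPM in fibroblast-scored Control cells. The losses changed there by −1.02, −0.38 and −1.87, each with an interval below 0, while the interval of the gain nearest to Grik2 (0.95) spanned 0. The peak of the first gain was called over 643 bp in Control and 839 bp in MOF cKO, and that of the first loss over 715 and 474 bp, while that of the gain nearest to Mbd2 was called over 938 and 911 bp and that of the loss nearest to Foxp1 over 846 and 806 bp. The part of the called width in these differences was not tested.

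The central 200 bases of 5 of these regions follow, from the GRCm38.p6 genome, plus strand, at chr5:33095398-33095597, chr10:48067148-48067347, chr12:79928724-79928923, chr6:98767950-98768149 and chr15:12713222-12713421, with matches to the motifs in capitals.
Gain near Slc5a1: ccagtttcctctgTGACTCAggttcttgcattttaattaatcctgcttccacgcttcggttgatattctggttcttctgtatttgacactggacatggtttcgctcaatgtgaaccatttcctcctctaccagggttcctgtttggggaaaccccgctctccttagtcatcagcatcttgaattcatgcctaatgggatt
Gain nearest to Grik2: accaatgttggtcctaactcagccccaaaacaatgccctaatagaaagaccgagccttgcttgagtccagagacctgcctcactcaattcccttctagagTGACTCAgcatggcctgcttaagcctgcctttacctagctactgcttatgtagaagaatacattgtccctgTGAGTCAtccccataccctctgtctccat
Loss in 9430078K24Rik: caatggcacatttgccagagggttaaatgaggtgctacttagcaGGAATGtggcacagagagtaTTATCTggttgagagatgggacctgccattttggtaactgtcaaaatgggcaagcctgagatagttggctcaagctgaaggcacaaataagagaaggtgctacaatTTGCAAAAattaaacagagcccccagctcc
Loss nearest to Foxp1: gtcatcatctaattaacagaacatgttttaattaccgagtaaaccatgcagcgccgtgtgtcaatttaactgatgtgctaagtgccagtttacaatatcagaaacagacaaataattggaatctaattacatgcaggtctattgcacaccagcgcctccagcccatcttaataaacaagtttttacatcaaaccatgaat
Loss in Pdzd2: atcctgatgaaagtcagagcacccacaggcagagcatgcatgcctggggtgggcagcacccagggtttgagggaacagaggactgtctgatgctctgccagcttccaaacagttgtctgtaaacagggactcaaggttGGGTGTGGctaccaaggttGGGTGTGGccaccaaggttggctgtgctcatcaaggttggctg
Both printed gains held AP-1 words, 1 near Slc5a1 and 2 nearest to Grik2. The gain nearest to Mbd2 was not searched in this way. The losses held none in these bases. The loss in 9430078K24Rik had a CEBP, a GATA and a TEAD word, the loss in Pdzd2 had 2 KLF words, and the loss nearest to Foxp1 had no match.

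AP-1 factors are dimers of Fos and Jun proteins that bind TGACTCA or TGAGTCA, the reverse complement of it, and are known in keratinocytes for differentiation, wounding and stress. Of the 1000 distal regions that rose most in MOF cKO members 74.1% (71.3 to 76.8) held this word, against 29.5% of all distal regions and 11% (9.13 to 13.1) of the 1000 that fell most. In the central 500 bp alone the shares were 64.6% and 4.30%, against 22.6% of all distal regions. The sets were alike in width, with medians of 949, 931 and 948 bp, and in GC content, with 43.3%, 45.2% and 43.9%. They differed in counts, with medians of 8 Control and 343 MOF cKO sites in the regions that rose and of 59 and 14 in those that fell, so the minimum of 20 sites was met largely through the library in which a region was high. The other words searched, on both strands, were AACCNGTT for GRHL, TTGCNNAA for CEBP, GGGNGTGG for KLF, GGAATG for TEAD and TGTGGTTT for RUNX. The GATA word was the one given above for Krt10, and the p63 pattern was a pair of cores spelled CATG with 6 bases between them. Their shares among the regions that rose lay within 6.3 percentage points of the shares of all distal regions, with KLF at 21.7% against 28.0% and GATA at 49.8% against 44.6%. RUNX was at 11.9% (9.96 to 14.1) among the regions that fell against 8.44% of all.

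Other cells were read in the same way. Basal-scored cells had 74.8% and 10.3% with an AP-1 word among the 1000 regions that rose and fell most. In fibroblast-scored cells, whose lists reached less extreme changes, these shares were 53.4% (50.3 to 56.5) and 22.7% (20.1 to 25.4). The loci of the 10 genes that encode AP-1 factors went from 1127 to 837 CPM in sum in members. Their median change was −0.44, against −0.24 for all genes, with 2 intervals above that median and 6 below it, and it was 0.17 in fibroblast-scored cells.

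**Figure D5:**
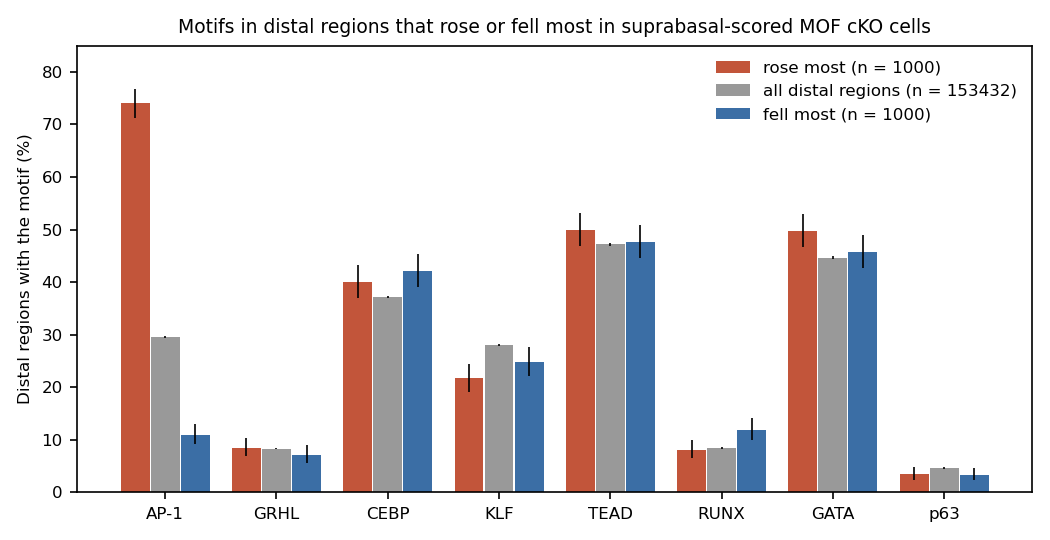
Share of distal regions that hold each motif (vertical axis, percent) among the 1000 that rose most, all 153432, and the 1000 that fell most in suprabasal-scored MOF cKO cells, with 95% exact binomial intervals. AP-1 separates the sets, at 74.1%, 29.5% and 11%, while the other 7 motifs differ by less.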

How the data were processed

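Per the labels and the study's methods, the authors aligned scATAC-seq reads to mm10 (GRCm38) with cellranger-atac 2.0.0, which called peaks and cells in each library separately. The deposited matrices hold counts of Tn5 cut sites per peak and cell, neither normalized nor filtered further.

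Peaks of both libraries that overlapped by at least 1 bp were merged, and regions with a peak in each library were kept. Counts were summed over the cells of a group and divided by the group's total in these regions. Promoter regions lay within 500 bp of a protein-coding start site in GENCODE vM21, distal regions over 2000 bp from any start. Features needed 20 sites over both libraries. A count of 0 entered a ratio as 1 site. Intervals are exact (95%; Poisson, binomial or conditional binomial) and were computed, as were log2 ratios, in Python 3.11.15 with numpy 2.4.6 and scipy 1.17.1, after a check on simulated data. With 1 library per genotype no test was run.

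Members and gene lists were chosen with earlier results of these data known. Genes were named by a rule: the scored genes and Kat8; genes of 5 lists past 2-fold with at least 100 sites, up to 5 each way, and 2 others of each list with the most sites; 5 promoters and 3 distal regions each way with at least 200 sites. Other genes named are marked in the text, and 1 gene that the rule takes is not reported here.

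Alternatives tried were 20000 sites per cell, the lowest 20% of the ratio, a common cut, 1 site added to each set, leaving out the deepest 5% of members, thinning to 5000 sites, other scalings, filters and windows, and, chosen after seeing the data, regions of like width and a 500 bp motif window.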

Additional observations from a re-analysis of the deposited data

Results flagged for a closer look

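In 2 named loci the change in MOF cKO had opposite signs in suprabasal-scored and fibroblast-scored cells, each with an interval that left out 0. The difference itself was not tested. Only named loci, named promoters and the scored genes were searched. How common the pattern was over all loci was not computed. Cers3 changed by 0.11 on the log2 scale (0.03 to 0.19) in suprabasal-scored cells and by −0.21 (−0.31 to −0.12) in fibroblast-scored cells. Rora changed by 0.10 (0.06 to 0.15) and by −0.14 (−0.18 to −0.09). Both sizes are small beside the named loci past 2-fold. The same pattern was found at 4 of the 25 genes that chose the classes of cells, so that their levels are not independent of the classes. Trp63 changed by −0.13 (−0.19 to −0.07) in suprabasal-scored and by 0.60 (0.49 to 0.72) in fibroblast-scored cells, and Perp by −0.51 (−0.62 to −0.40) and 0.36 (0.07 to 0.65). Col3a1 changed by 1.01 (0.66 to 1.37) and −0.22 (−0.31 to −0.13), and Twist2 by 0.60 (0.27 to 0.94) and −0.23 (−0.31 to −0.16).

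Peaks with no counterpart in the other library entered no comparison, and they held 12.7% of the sites of suprabasal-scored MOF cKO cells against 3.16% in suprabasal-scored Control cells. In fibroblast-scored cells these shares were 7.39% and 3.46%.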

How the results depend on the processing

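Of 135 values under alternatives, 99 stayed within the counting interval of the value reported (for counts of distal regions, within 1.5 times it), 35 moved further and 1 changed sign. Those not given here kept to it, among them the shares of distal regions past 2-fold and of the epidermal differentiation complex under every alternative tried. The cause of each shift was not tested.

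The difference in promoter share of −9.04 points was −8.97 with at least 20000 sites per cell, −9.51 in the lowest 20% of the ratio, −8.89 without the deepest 5% of members, −8.41 with cells thinned to 5000 sites and −8.81 with a promoter window of 100 bp. The median promoter change of −0.40 was −0.40 with 20000 sites per cell, a common cut, 1 site added, the deepest 5% left out or median-of-ratios scaling, −0.42 in the lowest 20%, −0.37 in thinned cells, −0.55 when scaled to all peaks of each library, −0.41 with the 100 bp window and −0.41 in regions of like width. In the lowest 20%, the list median less that of all genes was −0.18 for spinous, 0.18 for granular and −0.24 for respiratory chain genes. In thinned cells it was −0.25 for spinous, 0.87 for granular, 0.38 for lipid barrier and −0.24 for respiratory chain genes. At promoters alone it was 1.32 for granular and −0.083 for respiratory chain genes, and in regions of like width 0.14 for lipid barrier, 0.85 for stress and wound and −0.18 for respiratory chain genes. The spinous median between terciles in Control was 0.14 in the lowest 20%, 0.11 without the deepest 5%, 0.19 in thinned cells and −0.00062, the change of sign, with 1 site added. In MOF cKO it was 0.068 in thinned cells. The AP-1 share of the regions that rose was 71.3% in the lowest 20%, 80.1% in thinned cells and 64.6% in the central 500 bp, where that of the regions that fell was 4.30%.

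Scores from 11 to 13 sites per cell limit who counts as a member: with 1 site added, 381 of 391 Control and 679 of 718 MOF cKO members were kept. No paired analysis was possible because each genotype is 1 library, and no replicate could be left out.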

Other observations

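The changes of 4 further gene lists in MOF cKO are given here beside the all-gene median of −0.24. Of all genes, 33% had an interval above that median and 29.2% below it. The 15 Notch pathway genes had a median log2 change of −0.23, with 3 whose interval lay above the all-gene median and 3 below it, and none past 2-fold. The 10 desmosome genes had a median of −0.19, and the 16 basal layer genes −0.20, with 7 above and 5 below. The 13 hair follicle genes lay lower, with a median of −0.34, 4 above and 7 below, and in basal-scored cells −0.50.

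The immune list rose at promoters in all 3 groups of cells. Its 7 measured promoters went from 15.1 to 31.2 CPM in suprabasal-scored cells, a log2 change of 1.05 (0.83 to 1.27), and their median change was 1.07 there, 0.91 in basal-scored and 0.83 in fibroblast-scored cells. The level stayed low in each library.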
